A study of Homo sapiens with 4 samples.

Results

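The response to Bru was compared between the glioblastoma cell lines U251 and U87, gene by gene. The value given to each gene is a difference of log2 ratios: the log2 ratio of Bru to Control in U87 minus the same ratio in U251, computed on FPKM + 0.1 (fragments per kilobase of gene scaled to library size, with 0.1 added so that a gene at 0 has a ratio). A positive difference means that the ratio of Bru to Control was higher in U87, and a negative one that it was higher in U251. Protein-coding genes with an FPKM of at least 1 in at least 2 of the 4 libraries were used, which left 11161 of 19951 protein-coding genes and of 58735 genes in all. Of these, 9829 reached that level in both lines, 699 in U251 only and 633 in U87 only.

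U251 and U87 are established human cell lines derived from glioblastoma, a malignant brain tumour. Cells were exposed to Bru for 48 h. The study's text describes the concentration as the IC50, the one that cuts viability by a fixed share, and Control cells received none. The labels give 1 library for each of U251 Control, U251 Bru, U87 Control and U87 Bru, and do not give the concentrations. Line and concentration therefore cannot be told apart, and no difference has a replicate check. In bulk RNA, fewer cells of a type and less RNA per cell cannot be told apart either.

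Bru (brusatol) is a quassinoid, a bitter plant terpenoid, from seeds of Brucea. It is known to block protein synthesis on ribosomes and to lower short-lived proteins, among them NRF2, the transcription factor of antioxidant genes. RNA levels after such a block can rise or fall with the loss of unstable repressors and activators, so that genes for stress responses, the cell cycle and inflammation are the ones usually followed.

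Each library held between 17083896 and 21453561 recovered reads on genes. Transcripts of the mitochondrial genome made up between 2.43% and 4.06% of them. The mesenchymal markers VIM and CD44 and the receptor EGFR were well expressed in all 4 libraries. NES and SOX2, which mark neural progenitors, stood at an FPKM of 125 and 129 in U251 Control, and at 1.46 and 0 in U87 Control. The astrocyte gene GFAP did not pass an FPKM of 2.42 in any library. The glial gene OLIG2 was low but higher in U87, with 2 and 4 reads in U251 and 38 and 61 in U87. S100B, another glial gene, had 9 reads in U251 Control and 0 in each other library. Markers of other cell types were low but not all absent. PTPRC and AIF1 of leukocytes and CDH1 of epithelium had between 0 and 3 reads in each library, but the macrophage gene CD68 reached 20 reads and the epithelial gene EPCAM 15, both in U87 Control. The keratin gene KRT8 had between 185 and 404 reads. Of the endothelial genes, PECAM1 reached 70 reads, in U87 Control, and VWF 17, in U251 Bru. CDKN2A had 0 reads in all 4 libraries, which allows up to 3 reads in each, and MTAP had 4249 and 3508 reads in U251 against 0 and 0 in U87.

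The ratio of Bru to Control spread more widely in U251 than in U87. The interquartile range of the log2 ratio was 0.63 for U251 and 0.29 for U87, and 67.1% of the tested genes had the same sign in both lines. Across the 11161 genes, which are not independent replicates, Pearson's r between the lines was 0.45 and Spearman's rho 0.47. The difference was above 1 in 295 genes (2.64% of those tested) and below -1 in 241 genes (2.16%), around a median of -0.02. In U251 alone, 228 genes had a log2 ratio above 1 (2.04%) and 466 a ratio below -1 (4.18%). In U87, 32 genes were above 1 (0.287%) and 65 below -1 (0.582%).

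**Figure D1:**
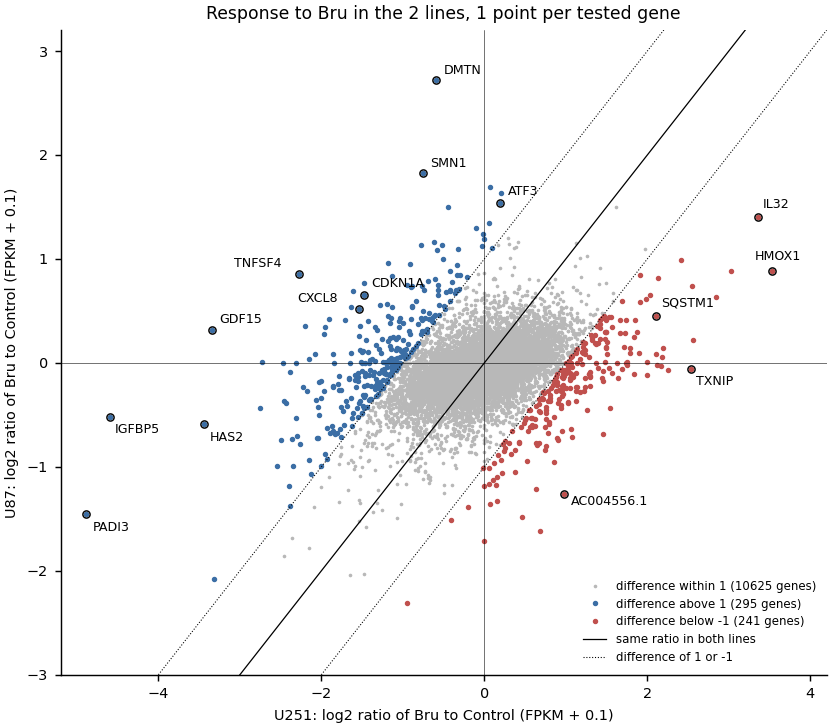
Log2 ratio of Bru to Control (FPKM + 0.1) in U251 on the horizontal axis and in U87 on the vertical axis, with 1 point for each of the 11161 tested genes. The 295 genes with a difference above 1 (blue) lie mostly to the left, where U251 was lower in Bru, and the 241 genes with a difference below -1 (red) mostly to the right.

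In most genes beyond 1 or -1, U251 moved further from 0 than U87. Among the 295 genes above 1, U251 moved further from 0 than U87 in 254, and in 166 the ratio was below -1 in U251 while U87 stayed within 0.5 of 0. Their median log2 ratio was -1.24 for U251 and 0.03 for U87. Among the 241 genes below -1, U251 moved further in 194, and in 118 the ratio was above 1 in U251 with U87 within 0.5 of 0. The opposite pattern, a ratio above 1 in U87 with U251 within 0.5 of 0, was found in 11 genes of the first set, and a ratio below -1 in U87 in 15 genes of the second.

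The genes below -1 had fewer reads and were shorter, but the share of intervals off 0 was about the same in both sets. The 95% counting interval of the difference lay off 0 in 245 of the 295 genes and in 201 of the 241 genes. It lay wholly beyond 1 or -1 in 92 and 57. Over all 11161 tested genes it lay off 0 in 6050 (54.2%). Both sets were picked by the size of the difference in the same reads, so a higher share in them is no separate evidence. These intervals come from the reads without the added 0.1, so that a difference in a gene with few reads can lie outside its own interval, and they compare libraries, not conditions. The genes below -1 had a median of 758 reads over the 4 libraries and a median length of 3275 bases. The genes above 1 had 2033 reads and 4582 bases, and all tested genes 3096 reads and 5131 bases. The part of read number and gene length in these counts was not tested.

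Genes above 1 tended to start higher in U251. The median of their log2 Control level in U87 minus that in U251 was -1.59, against 0.97 in the genes below -1 and -0.01 in all tested genes. Each Control library also enters the ratio it is set beside, and both sets hold genes that reached an FPKM of 1 in 1 line only. This is therefore a description of the 2 sets.

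The 12 largest positive differences were in IGFBP5, GDF15, PADI3, DMTN, TNFSF4, HAS2, SFRP1, SMN1, LRIG1, TINAGL1, SOCS1 and FST. Of these, 7 reached an FPKM of 1 in both lines, and the other 5 stayed below it in U87. GDF15 (ENSG00000130513, chromosome 19 from 18374731 to 18389176 in GRCh38) encodes a secreted stress hormone. The FPKM of Control and Bru was 142 and 13.9 in U251, and 53.9 and 67.0 in U87. The U251 Bru library was the lowest of the 4, whereas U87 Bru lay slightly above its Control. The difference was 3.65, with a counting interval of 3.505 to 3.81.

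HAS2, which makes hyaluronan, and FST, which binds activins, were lower in Bru in both lines but much more so in U251. HAS2 had an FPKM of 7.99 and 0.644 in U251 Control and Bru and of 5.69 and 3.74 in U87, a difference of 2.85 (2.55 to 3.53). FST stood at 11.5 and 1.62 in U251 and at 5.07 and 3.72 in U87, a difference of 2.31 (1.95 to 2.81). PADI3, a peptidylarginine deiminase, was at 23.5 and 0.694 in U251 and at 1.51 and 0.486 in U87, so that Bru was below Control in each line and the difference was 3.44 (2.62 to 4.25).

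LRIG1, a membrane protein that restrains receptor tyrosine kinases, went the other way in U87. Its FPKM was 24.97 and 5.34 in U251, and 2.05 and 2.66 in U87, with a difference of 2.56 (2.33 to 2.87). SOCS1, an inhibitor of cytokine signalling, had only 40, 7, 24 and 32 reads in the order U251 Control, U251 Bru, U87 Control and U87 Bru. Its difference of 2.33 had an interval of 1.31 to 4.42.

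For genes that U87 hardly expressed, the difference mostly restated the change in U251. IGFBP5 (chromosome 2 from 216672105 to 216695525), a binding protein of insulin-like growth factors, had the largest difference, 4.08. Its FPKM was 52.9995 and 2.09 in U251 (Control, then Bru), but U87 had 8 and 2 reads, and the interval ran from -0.57 to 5.05. SFRP1, an extracellular binder of Wnt proteins, had 8539 and 1129 reads in U251 with 2 and 2 in U87, and TINAGL1, a matrix glycoprotein, 1745 and 271 with 0 reads in both U87 libraries. TNFSF4, a ligand of the TNF family, had 2372 and 429 reads in U251 and 2 and 9 in U87. Its difference of 3.12 held a log2 ratio of -2.27 in U251 and one of 0.85 in U87 that rests on these few reads. DMTN, an actin-binding protein, was the reverse case, with 1133 and 662 reads in U251 and 1 and 50 reads in U87, where the ratio rests on a single Control read.

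SMN1, needed for the assembly of spliceosomal particles, was lower in U251 Bru (FPKM 11.8 and 6.97) and higher in U87 Bru (4.22 and 15.2), a difference of 2.58. It shares 86.5% of its 50-base stretches with SMN2, so the counting could place reads on either copy. Summed over both copies the reads were 1010 and 682 in U251 and 498 and 1106 in U87, and the difference was 1.59 (1.38 to 1.80).

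**Figure D2:**
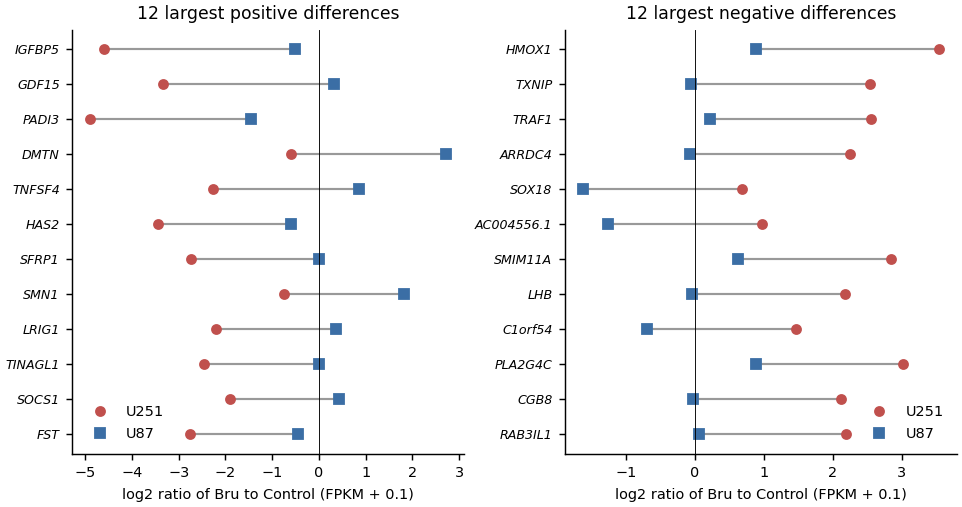
Log2 ratio of Bru to Control (FPKM + 0.1) in U251 (red circles) and U87 (blue squares) for the 12 genes with the largest positive difference (left) and the 12 with the largest negative one (right), largest at the top. In 10 of the 12 genes on each side U251 lies further from 0 than U87, as in 8280 of all 11161 tested genes.

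The 12 largest negative differences were in HMOX1, TXNIP, TRAF1, ARRDC4, SOX18, AC004556.1, SMIM11A, LHB, C1orf54, PLA2G4C, CGB8 and RAB3IL1. Of these, 10 reached an FPKM of 1 in both lines. The last gene inside the limit of 12 had a difference of 2.31 on the positive side and -2.12 on the negative side, and the first gene outside it 2.31 and -2.11. HMOX1 (ENSG00000100292, chromosome 22 from 35380361 to 35394214), which encodes the haem-degrading enzyme haem oxygenase, had an FPKM of 13.96 and 163 in U251 (Control, then Bru) and of 57.4 and 106 in U87. Bru was above Control in both lines, by 11.7-fold in U251 and 1.85-fold in U87, and U251 passed U87 only after Bru. The difference was -2.65 (-2.79 to -2.52).

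TXNIP and ARRDC4 encode related arrestin-domain proteins that limit glucose uptake, and both are known targets of the glucose-sensing factors MondoA and ChREBP. TXNIP (chromosome 1 from 145992435 to 145996600) stood at an FPKM of 3.43 and 20.4 in U251 Control and Bru, and at 4.15 and 3.99 in U87. ARRDC4 stood at 0.141 and 1.05 in U251, from 12 and 79 reads, and at 3.68 and 3.51 in U87. In each gene the U251 Bru library was above its Control, while the U87 libraries lay close together. The differences were -2.59 (-2.95 to -2.31) and -2.32 (-4.01 to -2.03). With 1 added in place of 0.1, that of ARRDC4 was -0.90.

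The promoter of TXNIP is shown because these factors bind a pair of E boxes, the carbohydrate response element. The sequence is that of RefSeq (GRCh38.p14, chr1:145996580-145996829, minus strand), the 250 bases before the start, with the match to a direct repeat of the element in capitals. This spelling of the element was chosen after the promoter was read and was 1 of 5 tried on both strands, of which 3 matched TXNIP and 0 matched ARRDC4; the published consensus matched neither. It occurs in 0.0586% of 27305 promoters of the same length. A match is a description of the letters and not a site in use.
TXNIP: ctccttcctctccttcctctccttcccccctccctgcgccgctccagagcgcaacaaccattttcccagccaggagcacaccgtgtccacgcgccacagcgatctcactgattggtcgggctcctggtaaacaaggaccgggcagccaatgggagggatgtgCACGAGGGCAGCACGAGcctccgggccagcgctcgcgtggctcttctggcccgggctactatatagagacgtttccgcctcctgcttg

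Other genes in this set had few reads in at least 1 line. TRAF1, an adaptor of TNF receptors, had an FPKM of 0.414 and 2.93 in U251 and of 4.60 and 5.37 in U87, a difference of -2.34 (-3.06 to -2.15). PLA2G4C, a phospholipase, was at 0.0649 and 1.24 in U251 and at 0.653 and 1.29 in U87, where both Bru libraries ended at a similar level. RAB3IL1, an exchange factor of Rab proteins, had 15 and 80 reads in U251 and 386 and 388 in U87. SOX18, a transcription factor of vessels, had 78 and 113 reads in U251 and 7 and 0 in U87.

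Gene copies and overlaps limit several of these values. SMIM11A shares 93.2% of its stretches with SMIM11B, and the difference was -2.21 alone and -2.81 with the copies summed. CGB8, of the chorionic gonadotropin beta cluster, shares 82.8% with 6 neighbours, and its difference was -2.14 alone and -1.52 summed. C1orf54 overlaps exons of APH1A on the other strand over 36.3% of its exonic length. LHB, the beta subunit of luteinizing hormone, rested on 5, 24, 50 and 47 reads in library order. AC004556.1 lies on a scaffold outside the assembled chromosomes and had 20, 36, 94 and 37 reads.

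Opposite signs were common but small. In 1335 genes (12%) Bru was above Control in U87 and below it in U251, and in 2144 genes (19.2%) the reverse held. Both log2 ratios were beyond 0.5 in 34 genes of the first kind (0.305%) and 32 of the second (0.287%), and 0 genes were beyond 1 in both lines. Both counting intervals lay off 0 in 217 (1.94%) and 398 genes (3.57%).

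The 8 genes with the strongest opposite signs that were higher in U87 Bru were TNFRSF10C, ZNF536, TNFSF4, CA9, PGAM4, SCT, SMN1 and HES4, and both intervals lay off 0 in 3 of them. CA9, a carbonic anhydrase known as a hypoxia marker, had an FPKM of 31.5 and 14.3 in U251 and of 1.19 and 2.20 in U87, a difference of 1.97 (1.39 to 2.68). It overlaps exons of ARHGEF39 on the other strand over 38.5% of its exonic length. SCT, the hormone secretin, and HES4, a repressor of the Notch pathway, had 4 and 7 and 14 and 24 reads in U87. ZNF536, a zinc finger repressor, had 526 and 240 reads in U251 and 16 and 44 in U87. PGAM4 shares 50.7% of its stretches with PGAM1 and related genes, and the difference was 1.91 alone and 0.28 summed. The sum held 17647 reads in U251 Control, of which PGAM4 itself had 36, so that it describes mostly the other genes. TNFRSF10C, a decoy receptor of the death ligand TRAIL, overlaps exons of AC107959.4 and AC107959.5 over 39.3% of its exonic length. Its difference was 2.14 alone and 0.58 (-0.82 to 1.84) with these genes summed.

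The 8 genes with the strongest opposite signs that were higher in U251 Bru were AC004556.1, PAMR1, HIST1H2AL, SAMD11, KRT81, CD74, DHDH and C1orf54, and both intervals lay off 0 in 5 of them. SAMD11, with at least 348 reads in each library, stood at an FPKM of 4.37 and 7.38 in U251 and of 8.67 and 4.80 in U87, a difference of -1.58 (-1.88 to -1.34). CD74, the invariant chain of antigen presentation, had 0 and 5 reads in U251 and an FPKM of 14.5 and 8.77 in U87. HIST1H2AL, a histone gene, rested on 1 and 2 reads in U251, and its interval ran from -8.01 to 2.50. KRT81, a hair keratin, had 11 and 5 reads in U87, and DHDH, a dehydrogenase, between 11 and 32 reads in each library. KRT81 shares 43.7% of its stretches with KRT86 and related genes, and its difference was -1.64 alone and -1.87 summed.

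The 20 gene lists were read by their counts and medians beside all tested genes, of which 2.64% lay above 1, 2.16% below -1 and 5354 of 11161, slightly under an even share, above 0. The median difference was positive in 14 lists and negative in 6.

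Immediate early genes are switched on within minutes of growth factor signals, and ERK feedback genes encode the phosphatases and Sprouty proteins that damp the same pathway. Of 39 members tested, 14 lay above 1 and 0 below -1, with a median difference of 0.77. The median log2 ratio was -0.58 for U251 and 0.03 for U87. SPRY4, a Sprouty inhibitor, had an FPKM of 22.3 and 5.46 in U251 and of 8.18 and 7.24 in U87, a difference of 1.84 (1.67 to 2.04). DUSP4, a phosphatase of ERK, had 36.0 and 11.5 in U251 and 9.23 and 9.89 in U87, a difference of 1.73 (1.599 to 1.88). In both genes U251 Bru was well below its Control and the U87 libraries were close together. SPRY1, of the same family, had 1029 and 217 reads in U251 and 1 and 0 in U87. It counts among the 14, but its interval included 0.

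The medians of the 2 roles had opposite signs in U87, where the log2 ratio was 0.16 for the immediate early factors and -0.17 for the feedback genes. FOSB, a subunit of AP-1 named after its values were seen, was at an FPKM of 48.3 and 50.8 in U251 and at 8.84 and 28.8 in U87, so that the U251 libraries were close together and the U87 libraries were not. ATF3, a stress-induced transcription factor that also stands in the list of integrated stress response targets, was at 36.1 and 41.5 in U251 and at 9.47 and 27.7 in U87, a difference of 1.34 (1.21 to 1.499).

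Damage-response genes were listed in 2 roles: cell cycle, feedback or repair (25 tested) and cell death (10 tested). Of 38 listed 35 were tested, and 9 lay above 1 and 0 below -1, with a median difference of 0.60. The 9 include TNFRSF10C, which had 5 and 0 reads in U251 Control and Bru. The median log2 ratio was -0.31 for U251 and 0.36 for U87, and 21 of the 35 were below Control in U251 and above it in U87. CDKN1A (ENSG00000124762, chromosome 6 from 36676460 to 36687339), the inhibitor of cyclin-dependent kinases p21, had an FPKM of 35.6 and 12.7 in U251 and of 83.7 and 132 in U87. Its Bru library was the lowest of the 4 in U251 and the highest in U87, and the difference was 2.13 (2.01 to 2.28).

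GDF15 stands in this list too, and further members named after their values were seen followed the same order at smaller size. MDM2, a ubiquitin ligase, was at an FPKM of 6.74 and 5.01 in U251 and at 6.47 and 10.5 in U87. BBC3, which encodes the death protein PUMA, was at 3.04 and 1.32 in U251 and at 3.15 and 4.28 in U87.

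**Figure D3:**
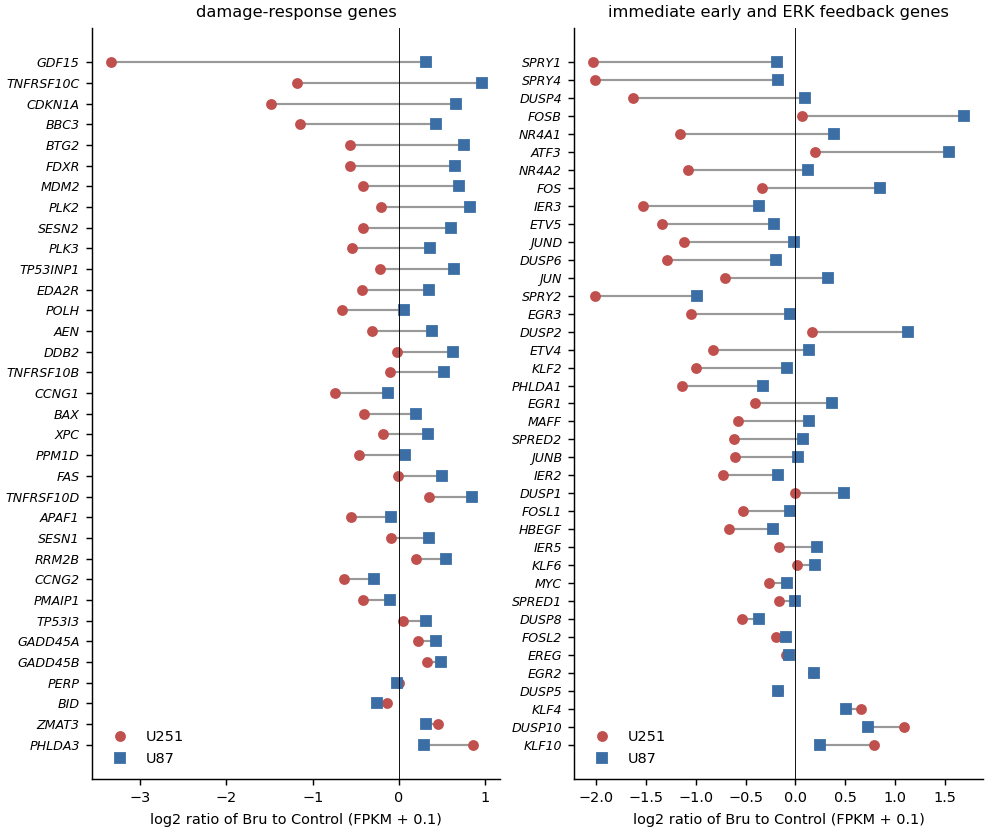
Log2 ratio of Bru to Control (FPKM + 0.1) in U251 (red circles) and U87 (blue squares) for 34 damage-response genes (left) and the 39 immediate early and ERK feedback genes (right), sorted by the difference. For 30 of the 34 damage-response genes shown and 35 of the 39 others the square lies to the right of the circle. Of all 35 damage-response genes tested 30 had a difference above 0 and 5 one below it, and 1 of these 5 is not drawn.

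DNA replication genes were lower in U251 Bru and nearly level in U87. All 51 listed genes were tested, 50 had a difference above 0 (against 5354 of all 11161), and 6 lay above 1 and 0 below -1. The median difference was 0.64, with a median log2 ratio of -0.80 for U251 and -0.10 for U87. CCNE1, the cyclin that opens S phase, had an FPKM of 11.1 and 4.13 in U251 and of 12.02 and 12.3 in U87, a difference of 1.43 (1.158 to 1.75). LIG1, the ligase that joins Okazaki fragments, had 16.5 and 6.92 in U251 and 6.99 and 7.02 in U87, a difference of 1.25 (1.08 to 1.44). For both genes the U87 libraries were nearly equal and U251 Bru lay well below its Control. E2F7, a repressor of the E2F family, had 2235 and 888 reads in U251 and 0 reads in both U87 libraries. It counts among the 50 and the 6, but its ratio in U87 exists only through the added 0.1, and its interval has no bounds.

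Mitosis genes showed the same order at smaller size. Of 53 tested, 52 had a difference above 0, with a median of 0.47, but only 1 lay above 1, no larger a share than the 2.64% of all tested genes. MKI67, a marker of cycling cells, was at an FPKM of 47.3 and 21.8 in U251 and at 45.1 and 41.6 in U87, a difference of 0.998 (0.94 to 1.06). The kinetochore genes SPC24 and SPC25 had differences of 0.99 and 1.02.

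E2F factors drive transcription of replication genes, and the promoters of 3 list members are shown with their E2F sites because these genes moved together. The site searched, TTTNNCGC on both strands, was added after the values were seen. It occurred in 17 of the 42 replication promoters that the RefSeq table held (40.5%). Of 47 mitosis promoters 6 held it (12.8%), and of all 27305 promoters 5.93%. Among the named genes it occurred in 1 of 30 promoters with a difference above 1 and in 1 of 21 below -1. Whether the site goes with the difference was not tested. Other motifs were also more frequent in the replication promoters than in all promoters: TGACG, which a CRE contains, stood in 35.7% of the 42 against 21.7%, and the antioxidant response element TGACNNNGC in 7 of the 42 (16.7%) against 3013 of 27305, while the TEAD site GGAATG stood in 11.9% of either. E2F1, E2F2 and PCNA were chosen to be shown after their values were seen, from genes whose RefSeq start lies close to that in the files. Their differences were 0.96 (0.84 to 1.08), 1.10 (0.89 to 1.37) and 0.93 (0.83 to 1.04). The windows hold the 250 bases before the start in GRCh38.p14 on the minus strand, at chr20:33686386-33686635 for E2F1, chr1:23531234-23531483 for E2F2 and chr20:5126623-5126872 for PCNA, with matches in capitals, adjoining or overlapping ones as 1 run.
E2F1: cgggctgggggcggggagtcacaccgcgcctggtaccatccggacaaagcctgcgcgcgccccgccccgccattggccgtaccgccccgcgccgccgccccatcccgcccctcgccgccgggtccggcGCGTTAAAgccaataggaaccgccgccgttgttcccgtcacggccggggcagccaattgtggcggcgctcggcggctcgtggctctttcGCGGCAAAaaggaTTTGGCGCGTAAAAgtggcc
E2F2: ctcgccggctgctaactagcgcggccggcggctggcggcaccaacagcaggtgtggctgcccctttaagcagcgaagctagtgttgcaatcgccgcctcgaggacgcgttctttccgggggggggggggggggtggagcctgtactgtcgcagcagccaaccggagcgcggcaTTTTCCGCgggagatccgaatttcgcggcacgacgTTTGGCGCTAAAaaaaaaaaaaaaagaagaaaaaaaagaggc
PCNA: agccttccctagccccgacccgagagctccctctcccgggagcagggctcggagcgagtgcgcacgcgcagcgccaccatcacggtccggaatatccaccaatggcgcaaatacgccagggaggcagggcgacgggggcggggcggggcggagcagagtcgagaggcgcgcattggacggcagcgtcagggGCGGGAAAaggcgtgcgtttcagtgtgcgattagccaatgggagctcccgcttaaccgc

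Ribosomal protein genes differed in the other direction. Of 79 cytosolic ones tested, 76 had a difference below 0 although 0 passed -1, with a median of -0.34. The median log2 ratio was 0.69 for U251 and 0.32 for U87. RPS26 and FAU, both of the small subunit, were furthest from 0. RPS26 was at an FPKM of 75.5 and 153 in U251 and at 154 and 181 in U87, a difference of -0.79 (-0.87 to -0.71), and it shares 15.9% of its stretches with other genes. FAU had a difference of -0.73, or -0.65 with SYVN1 summed. Of 77 mitochondrial ones, 68 had a difference below 0 and 1 lay below -1, with a median of -0.40. MRPS18B was at 28.2 and 68.8 in U251 and at 21.9 and 27.8 in U87, a difference of -0.94 (-1.12 to -0.77). MRPS31, the 1 member below -1, had a difference of -1.01 (-1.30 to -0.73). MRPL53, the 1 member above 1, shares 40.4% of its stretches with CCDC142 and went from 1.03 to 0.37 with both summed. Respiratory chain and ATP synthase subunits followed at smaller size, with 54 of 75 below 0, where all tested genes split nearly evenly, and a median of -0.18. NDUFC2, NDUFB9 and NDUFB10, subunits of complex I, had differences of -0.92, -0.82 and -0.66.

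The NF-kB and inflammatory list split by role. Its 12 tested ligands had a median difference of 0.96 and its 20 regulators and receptors one of -0.48, and over the list 7 lay above 1 and 5 below -1. CXCL8, a chemokine that attracts neutrophils, had an FPKM of 62.3 and 21.4 in U251 and of 38.4 and 54.8 in U87, a difference of 2.05 (1.91 to 2.20). IL32, another cytokine and 1 of 3 tested ligands with a difference below 0, stood at an FPKM of 0.728 and 8.36 in U251 and 0.466 and 1.40 in U87, a difference of -1.95 (-2.73 to -1.11). The regulator TNFAIP3, named after its values were seen, is an NF-kB feedback inhibitor and was at 1.161 and 3.89 in U251 and at 7.04 and 9.43 in U87.

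For most genes of the extracellular matrix and its proteases the ratio of Bru to Control was lower in U251 than in U87. Of 58 matrix genes tested, 10 lay above 1 and 3 below -1, with a median difference of 0.59. NID1, a basement membrane linker, had 3812 and 1078 reads in U251 and 6 and 13 in U87. COL16A1, a minor collagen, was the member furthest below 0, at an FPKM of 0.288 and 1.15 in U251 and of 11.9 and 11.4 in U87. Of 28 proteases and inhibitors, 5 lay above 1 and 0 below -1, with a median of 0.50. SERPINE2, an inhibitor of thrombin and urokinase, was at 28.8 and 5.25 in U251 and at 15.7 and 11.96 in U87, a difference of 2.05 (1.93 to 2.20). ADAM19 was at 78.1 and 19.4 in U251 and at 1.501 and 1.163 in U87, and MMP17 had a difference of 1.497 (1.02 to 2.22).

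Among the proteins that the study followed, ECM1, a secreted matrix glycoprotein, was at an FPKM of 5.11 and 1.57 in U251 and at 6.47 and 3.33 in U87. Bru was below Control in both lines and by more in U251, and the difference was 0.70 (0.32 to 1.165). The gelatinase MMP2 and the inhibitor TIMP2 were also lower in Bru in both lines, and by more in U251. MMP2 was at 26.6 and 11.7 in U251 and at 215 and 172 in U87, a difference of 0.86 (0.76 to 0.98). TIMP2 was at 73.8 and 30.2 in U251 and at 67.2 and 43.0 in U87, a difference of 0.64 (0.56 to 0.72). TIMP1 had nearly the same ratio in both lines, with a difference of -0.01 (-0.14 to 0.13). The collagenase MMP1 had 5 and 1 reads in U251, too few to give its ratio there, and MMP9 had 0, 1, 0 and 11 reads and was not among the tested genes.

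NRF2 targets lay on both sides of 0. Of 31 tested, 14 had a difference above 0 and 17 one below it, which is close to the split of all tested genes, and 0 lay above 1 and 2 below -1, with a median of -0.04. Beside HMOX1 the second was SQSTM1, the autophagy receptor p62, at an FPKM of 118 and 507 in U251 and at 203 and 278 in U87, a difference of -1.65 (-1.68 to -1.62). Exons of MGAT4B and MRNIP overlap 22.0% of it on the other strand. AKR1C1, a ketosteroid reductase, had a difference of -0.81 (-1.22 to -0.52), or -0.84 with AKR1C2 summed. NQO1, a quinone reductase named after its values were seen, had one of 0.33 (0.26 to 0.40).

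Integrated stress response targets had a median difference of 0.13, with 3 of 44 above 1 and 2 below -1, and of 0.028 when an FPKM of at least 5 was asked for. The roles in the list differed, where all tested genes split nearly evenly. Of 12 aminoacyl-tRNA synthetases, 9 had a difference below 0, with a median of -0.19. The 16 regulators had 9 above 0 and 7 below it, and the 8 amino acid synthesis genes tested all lay above 0. The amino acid transporters of the list had 7 of 8 tested members above 0. The exception among these transporters was SLC3A2, their heavy chain. It was at an FPKM of 47.7 and 154 in U251 and at 65.9 and 99.6 in U87, a difference of -1.09 (-1.161 to -1.03). ER chaperones had a median of 0.24 over 35 genes, with 1 above 1, the disulfide isomerase PDIA4, at 148 and 39.8 in U251 and at 91.6 and 57.3 in U87. P4HB and HSP90B1 had differences of 0.71 and 0.73. Cytosolic heat shock genes had a median of -0.22 over 17 genes, with HSPA1B at an FPKM of 17.02 and 25.5 in U251 and of 26.2 and 17.1 in U87, a difference of -1.20 (-1.39 to -1.02), and CHORDC1 and DNAJB4 at -0.90 and -0.65. HSPA1B shares 73.5% of its stretches with HSPA1A and another gene, and the difference was again -1.20 with the reads summed.

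Lipid genes had a median log2 ratio of -0.79 for U251 and -0.72 for U87. The median difference was 0.14 over 39 genes, with 2 above 1 and 2 below -1, but the roles differed. The 20 cholesterol synthesis genes had a median of -0.12, with 8 above 0 and 12 below it. The 11 fatty acid synthesis genes had one of 0.39, with 10 above 0. The 8 genes of uptake and regulation had one of 0.58, with 6 above 0. All tested genes split nearly evenly. SREBF1, a master regulator of lipid synthesis, was at an FPKM of 35.3 and 7.04 in U251 and at 13.6 and 9.40 in U87, a difference of 1.78 (1.66 to 1.94). MVK, mevalonate kinase, went the other way from SREBF1, at 2.32 and 2.41 in U251 and at 6.76 and 2.96 in U87, a difference of -1.22 (-1.55 to -0.94).

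Hippo and SRF targets had a median difference of 0.20 over 41 genes, with 2 above 1 and 1 below -1. CTGF, a secreted growth regulator and a known target of the Hippo effectors YAP and TEAD, was at an FPKM of 480 and 175 in U251 and at 35.6 and 32.5 in U87, a difference of 1.33 (1.22 to 1.44). ANKRD1, a further YAP target, had 682 and 442 reads in U251 and 12 and 39 in U87. AJUBA, an adaptor in the same pathway, had a difference of -1.08 (-1.34 to -0.86). The promoter of CTGF is shown for its TEAD sites (GGAATG, both strands), which 11.9% of all promoters hold and which stand in capitals. The window is the 250 bases before the RefSeq start in GRCh38.p14, chr6:131951373-131951622 on the minus strand.
CTGF: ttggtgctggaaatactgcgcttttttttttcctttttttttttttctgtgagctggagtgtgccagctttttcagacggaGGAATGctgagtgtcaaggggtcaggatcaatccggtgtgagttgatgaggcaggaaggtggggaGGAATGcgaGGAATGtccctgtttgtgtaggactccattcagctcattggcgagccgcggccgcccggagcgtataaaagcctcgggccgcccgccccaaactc

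The promoter table held 67 of the 93 named genes that were tested. Of the 30 with a difference above 1, TGACNNNGC, the antioxidant response element, occurred in 3 and TGACG, which a CRE contains, in 3. GGAATG occurred in 4 of these and the E2F site TTTNNCGC in 1. Of the 21 with a difference below -1, these motifs occurred in 3, 3, 2 and 1, in the same order. Of all 27305 promoters, 3013, 5914, 3248 and 1618 held them. A promoter without these letters in 250 bases says nothing of the factor.

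The remaining lists had medians between 0.11 and 0.28. Glial lineage and receptor genes had 6 of 34 above 1 and 2 below -1. ID2, an inhibitor of differentiation factors, was at an FPKM of 15.0 and 50.6 in U251 and at 26.4 and 26.6 in U87, a difference of -1.74 (-1.92 to -1.56). FABP7, a fatty acid binder of radial glia, had 473 and 103 reads in U251, and FGFR3, a growth factor receptor, 275 and 113, both with at most 4 reads in U87. Both count among the 6, but their intervals included 0. Hypoxia and glycolysis genes had 1 of 44 above 1, and beside CA9 the collagen hydroxylase PLOD2 and the glucose transporter SLC2A1 had differences of 0.86 and 0.84. Interferon-stimulated genes had 3 of 37 above 1 and 1 below -1, the tetherin gene BST2, which rests on 8 and 0 reads in U87 and whose difference of -1.36 turned to 0.46 with 1 added in place of 0.1. TRIM22, an antiviral protein, had a difference of 1.33 (1.01 to 1.86), and IFITM2 one of 1.52, or 0.63 with IFITM1 and IFITM3 summed. Lysosome and autophagy genes had 0 of 45 above 1 and 1 below -1, SQSTM1, and the autophagosome protein MAP1LC3A stood at 0.91. GABARAP, of the same family, had 79, 65, 51 and 25 reads in library order and a difference of -0.78 (-1.78 to 0.02), or -0.395 with 1 added in place of 0.1. Exons of other genes overlap 55.7% of it.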

How the data were processed

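RNA of U251 and U87 cells was sequenced as paired-end reads from 1 library per group. The authors deposited FPKM per gene, scaled to gene length and to a library size that is not stated. The submitters' processing notes name HISAT2 2.0.5, StringTie 1.3.3b, featureCounts 1.5.0-p3, DESeq2 1.16.1 and the build hg18 without roles, but the gene coordinates in the files are those of GENCODE release 29 (GRCh38) for 58724 of 58735 genes, so positions are given in GRCh38. The kit is not stated to keep strand, so a gene and its antisense partner cannot be told apart.

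In each library, 100% of the values above 0 became whole numbers when FPKM times gene length was divided by 1 common step, within 0.01 reads and with a largest deviation of 4.35e-05. These reads, with library sizes of 17406238 to 20974002, gave the intervals: the exact Clopper-Pearson interval at 95% for the ratio in a line, and the exact conditional interval of the odds ratio for the difference between lines. Without molecular identifiers, they cover only the error of counting. At this depth 3 reads on a gene of 1 kilobase equal an FPKM of 0.143 to 0.172. No p-value was computed, since each group has 1 library.

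Genes were named by rule: the 12 largest differences in each direction, the 8 largest in each direction among genes that reach the minimum in both lines, the 8 in each orientation with opposite signs whose smaller log2 ratio was largest, the 3 members of each of 20 lists furthest from 0, and the genes of 6 proteins that the study followed. Genes outside the rule are said to be named after their values were seen. The rule for the members and the lists was chosen with earlier results of these data known. Reads of genes sharing at least 20% of their 50-base stretches with other genes were also summed with them. Promoters are from RefSeq. Some genes that the rule selects are not reported here. Scripts ran in Python 3.11.15 with numpy 2.4.6, pandas 2.3.3, scipy 1.17.1 and matplotlib 3.10.9 and were tested on simulated data. Alternatives were a pseudocount of 1 or 0.01, 3 other filters and 3 other scalings.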

Additional observations from a re-analysis of the deposited data

Results flagged for a closer look

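With 1 library per group, every gene with opposite signs in the 2 lines moved one way in all libraries of one line and the other way in the other line, and 3479 tested genes did so. The genes given here are the 21 named ones for which both counting intervals also lay off 0, out of 615 such genes among all tested. The difference between lines was not tested for any of them, since no replicate gives a spread between samples.

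Bru was above Control in U87 and below it in U251 in 12 of the 21. The differences were 3.65 in GDF15, 3.31 in DMTN, 2.58 in SMN1, 2.56 in LRIG1, 2.13 in CDKN1A, 2.05 in CXCL8, 1.97 in CA9, 1.94 in ANKRD1, 1.86 in ZNF536, 1.33 in TRIM22, 0.99 in SPC24 and 0.86 in PLOD2. DMTN and ANKRD1 had 1 and 12 reads in U87 Control, and SMN1 shares most of its sequence with SMN2.

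Bru was above Control in U251 and below it in U87 in the other 9. The differences were -2.31 in SOX18, -2.23 in AC004556.1, -2.15 in C1orf54, -1.81 in PAMR1, -1.61 in CD74, -1.58 in SAMD11, -1.20 in HSPA1B, -0.92 in NDUFC2 and -0.81 in AKR1C1. PAMR1 had 2 and 9 reads in U251 and CD74 0 and 5, and SOX18 had 7 and 0 in U87. The sizes for DMTN, SOX18 and CD74 depend on the added constant. SAMD11, HSPA1B, NDUFC2 and AKR1C1 had at least 135 reads in every library.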

How the results depend on the processing

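No paired analysis was possible because the labels give 1 library per group and no replicate numbers, and for the same reason no library was left out.

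Counts of genes moved with the treatment of low values. The 295 genes above 1 became 167 with a pseudocount of 1, 152 with an FPKM of at least 1 in all 4 libraries, 158 with at least 5 in 2 libraries and 795 with no filter. The 241 genes below -1 became 75, 109, 87 and 609 in the same order. The 66 genes with opposite signs beyond 0.5 became 9 with a pseudocount of 1, 104 with 0.01, 20 and 23 with the stricter filters and 236 with none. The genes above 1 were 55.0% of those beyond 1 either way, 69.0% with a pseudocount of 1, 64.5% with the minimum of 5, and 49.8% to 58.7% under other scalings, which moved the median difference of all genes from -0.02 to between -0.05 and -0.0045.

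The medians of all 20 lists kept their sign. In 160 of 160 alternatives they moved by less than the middle counting half-width of their members, a measure chosen for this purpose. That half-width is one of single genes and is wide for a median, so this measure could hardly show a shift. The glial median went from 0.28 to 0.13 with the minimum of 5, and the NF-kB median from -0.22 to -0.09 with no filter. Of 465 alternatives for the 93 named genes, 3 turned the sign: TIMP1 was 0.012 after centring on the median, and with a pseudocount of 1 BST2 was 0.46 and MMP1 -0.51. Another 11 moved by more than the counting half-width, such as TRAF1, which was -1.29 with a pseudocount of 1, and PLA2G4C, at -0.61. Genes with few reads have intervals so wide that this measure cannot show a shift. With a pseudocount of 1 or 0.01, the difference of DMTN went from 3.31 to 1.24 or 5.46, that of SOX18 from -2.31 to -0.78 or -5.16, and that of CD74 from -1.61 to -0.79 or -3.97. Without replicates, none of these values gives the spread between repeats of the experiment.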

Other observations

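Zinc finger and histone genes, which stand outside the lists, were noticed after their values were seen. Of 364 tested zinc finger genes named ZNF, 250 had a difference below 0 (all tested genes split nearly evenly, with 5354 of 11161 above 0), 18 lay below -1 (4.95%, against 2.16% of all tested genes) and 3 above 1 (0.824%, against 2.64%), with a median difference of -0.20 and a median log2 ratio of 0.25 for U251 and 0 for U87. These genes encode mostly sequence-specific repressors.

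Of 20 tested histone genes named HIST, 5 lay below -1 and 2 above 1, with a median of -0.41. The counting interval included 0 in the 2 above 1, HIST4H4 and HIST1H3C, and in 3 of the 5 below -1, HIST1H2AL, HIST1H4D and HIST2H3D. Of the others, HIST1H1C, a linker histone, had an FPKM of 5.27 and 23.5 in U251 (Control, then Bru) and of 87.2 and 153 in U87, so that Bru was above Control in both lines and more so in U251. HIST1H2AC was at 1.66 and 10.2 in U251 and at 12.5 and 20.9 in U87. Many histone transcripts lack a poly(A) tail, and histone genes share sequence, so that their counts are less certain than those of other genes. No test was run on either family.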
